A study of Mus musculus with 24 samples.

Results

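The Toll-like receptor genes Tlr1, Tlr2, Tlr3, Tlr4, Tlr5, Tlr6, Tlr7, Tlr8 and Tlr9 and the co-receptor gene Cd14 were taken by their symbols from the count tables, which gave 10 genes of 23420, and were followed through 24 RNA-seq libraries in 10 groups. The mice were C57BL/6 and adult, and the knockouts carried floxed alleles with a Cre recombinase activated by tamoxifen. TDG iKO cells lacked thymine DNA glycosylase, which removes oxidised methylcytosines from DNA, and TET iTKO cells lacked TET1, TET2 and TET3, the dioxygenases that make them. Cre-expressing mice and WT controls were both given tamoxifen, so all groups share that treatment. Bone marrow-derived macrophages (BMDM, grown from marrow in medium with M-CSF) were collected at 0 h, without stimulation, or after 6 h of Kdo2-lipid A (KLA), a pure TLR4 ligand. A Tdg cohort held TDG iKO and WT BMDM and a Tet cohort held TET iTKO and WT BMDM, each with 2 libraries per genotype and time. Th2 cells, made from naive CD4 T cells stimulated through CD3 and CD28 with IL-4 and a blocking antibody to IFN-γ, were sequenced as 4 WT and 4 TDG iKO libraries and were not given KLA.

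Toll-like receptors are membrane proteins that recognise molecules of microbes and signal through the adaptors MYD88 and TICAM1. TLR4 binds lipid A together with its partner MD-2 (encoded by Ly96), and CD14 hands the lipid over. TLR2 pairs with TLR1 or TLR6 to bind bacterial lipopeptides and TLR5 binds flagellin, all at the cell surface, whereas TLR3, TLR7, TLR8 and TLR9 bind nucleic acids in endosomes. Macrophages are known for carrying most of these receptors, and CD14 is a marker of monocytes and macrophages.

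Total counts assigned to genes ranged from 4982950 to 26657729 per library, with a median of 14853861. The library with the fewest counts, replicate 2 of the WT BMDM at 0 h of the Tdg cohort, stood apart: across genes its log ratio to replicate 1 fell with gene length (Spearman correlation -0.38, against -0.208 to 0.29 in the other 7 BMDM pairs), and its Tlr8 level was 0.157 times that of replicate 1. In the comparisons of TDG iKO with WT at 0 h and of 6 h with 0 h in WT, values whose sign or call turned on this library are given with and without it. Th2 replicates 3 and 4 of each genotype differed by little more than counting noise (mean chi-square per gene 1.511 in WT and 1.337 in TDG iKO, against 21.27 to 218.1 for other pairs of Th2 replicates), so they were averaged and counted as 1 sample in means, with n = 3. The cell type labels were borne out by markers: the summed level of 6 macrophage genes was 297900 to 393600 normalised counts in BMDM and 115 to 639 in Th2 cells, and that of 6 T cell genes was 111 to 374 in BMDM and 21630 to 31560 in Th2 cells. Whole-gene counts did not check the deletions, since Tdg had 0 to 9.2 normalised counts in every library, WT included, and the levels of Tet2 and Tet3 were no lower in TET iTKO BMDM than in WT. Nothing in the labels says whether libraries of a BMDM group came from separate mice in the Tdg cohort, so p-values there measure the spread between these libraries.

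In the mouse genome build mm9, with GENCODE gene models, Tlr1 lies at chr5:65316050-65324000 and Tlr6 beside it at chr5:65344345-65351287. The other genes are Tlr2 (chr3:83640195-83645689), Tlr3 (chr8:46481019-46495962), Tlr4 (chr4:66488618-66591318), Tlr5 (chr1:184884919-184906175), Tlr7 (chrX:163742861-163768490), its X-linked neighbour Tlr8 (chrX:163680626-163702261) and Tlr9 (chr9:106124929-106129207). None of them or Cd14 overlaps another annotated gene. Of the 50-base windows along the longest coding transcript of each gene, 17.4% in Tlr1 and 17.8% in Tlr6 occur elsewhere in the genome. None does in the other 8 genes, so the levels of this related pair are less certain. Exon bases outside that transcript were not searched.

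The promoters of 4 genes are shown, those of the 3 lipopeptide receptor genes, whose levels rose with KLA in at least 1 cohort, and that of Tlr8, whose level fell with KLA in TET iTKO BMDM. Each lies just before an annotated start, on the minus strand, and is written 5′ to 3′ from RefSeq's promoter table and located by an exact match in mm9. Capitals mark a match to the kB motif (GGGAA followed directly by TTNCC) in Tlr2 and to GAGGAA, a core recognised by PU.1, on either strand in Tlr1 and Tlr8.
Tlr2 (chr3:83645690-83645780): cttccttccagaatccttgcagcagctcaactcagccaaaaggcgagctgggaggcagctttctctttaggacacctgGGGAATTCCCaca
Tlr1 (chr5:65324798-65325047): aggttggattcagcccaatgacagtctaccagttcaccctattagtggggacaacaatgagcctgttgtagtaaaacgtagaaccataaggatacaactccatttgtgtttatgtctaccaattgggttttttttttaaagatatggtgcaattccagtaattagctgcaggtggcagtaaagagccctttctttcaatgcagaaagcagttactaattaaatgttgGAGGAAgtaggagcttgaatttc
Tlr6 (chr5:65351288-65351537): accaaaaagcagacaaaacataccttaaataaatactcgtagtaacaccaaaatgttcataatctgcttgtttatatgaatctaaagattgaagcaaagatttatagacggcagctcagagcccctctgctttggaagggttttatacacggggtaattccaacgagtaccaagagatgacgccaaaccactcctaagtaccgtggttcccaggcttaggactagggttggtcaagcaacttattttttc
Tlr8 (chrX:163702262-163702511): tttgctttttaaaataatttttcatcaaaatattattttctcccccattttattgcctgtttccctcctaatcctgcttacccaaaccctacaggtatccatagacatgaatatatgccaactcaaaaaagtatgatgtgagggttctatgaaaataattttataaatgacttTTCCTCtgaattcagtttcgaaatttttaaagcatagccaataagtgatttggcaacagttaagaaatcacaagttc
The kB motif was searched on both strands over the 250 bases before each RefSeq start and found in 56 of 32851 mouse promoters (0.1705%). GAGGAA was found in 23.3% of the same promoters and the interferon-response motif (GAAA, any 2 bases, GAAA) in 2.98%. The printed Tlr6 promoter held none of these letters. CpG sites, where cytosine methylation is placed, numbered 11 in the 250-base window of Tlr2, of which only the 91 bases outside the gene are printed and hold 1, and 1 in the printed window of Tlr1, 6 in that of Tlr6 and 1 in that of Tlr8, beside a median of 6 over all promoters. RefSeq gives Tlr1 and Tlr6 a second start each, whose windows reach into the gene and are not printed. That of Tlr1 held 8 CpG sites and no GAGGAA, and that of Tlr6 held 4 CpG sites and 2 overlapping matches to the interferon-response motif. A match to a motif is a description and not a binding site. The promoters of Tlr3, Tlr4, Tlr5, Tlr7, Tlr9 and Cd14 are not shown. Tlr3 also rose with KLA in Tet-cohort WT. The windows of Tlr3, Tlr5 and Tlr9 held no kB or interferon-response motif, and GAGGAA was found in that of Tlr9 but not in those of Tlr3 and Tlr5.

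To compare genes, normalised counts were divided by the kilobases of exon. In unstimulated WT BMDM of the Tdg cohort the order of these levels was Cd14 (2649 ± 199.2, SD, n = 2), Tlr7 (902.7 ± 531.7), Tlr8 (605.3 ± 623.2), Tlr1 (477.1 ± 77.1), Tlr2 (440.2 ± 110.8), Tlr4 (311.3 ± 173.5), Tlr3 (168.9 ± 37), Tlr9 (118.4 ± 44.6), Tlr6 (74.98 ± 46.5) and Tlr5 (0.909 ± 1.29). The 2 libraries of each gene overlapped those of the next gene in this order, except between Cd14 and Tlr7 and between Tlr6 and Tlr5. The order was the same in replicate 1 alone, without the library that stood apart. In TDG iKO it was the same but for Tlr9 (280.3 ± 157.9) ahead of Tlr3 (203.3 ± 38.9), and the overlaps there were between Tlr2 and Tlr4, Tlr4 and Tlr9, and Tlr9 and Tlr3. In WT BMDM of the Tet cohort Cd14 was not at the head: Tlr7 (1003 ± 129.2) came before Tlr8 (778 ± 7.25) and Cd14 (742 ± 86.5), of which the last pair overlapped. TET iTKO BMDM at 0 h had Cd14 first again (2310 ± 745.3), then Tlr7 (1186 ± 15.1). After 6 h of KLA, Cd14 led in all 4 groups (5703 ± 695.9 in Tet-cohort WT to 14130 ± 1104 in Tdg-cohort WT) and Tlr2 came next (2773 to 3048), with Tlr1 and Tlr7 after it, overlapping each other in 3 of the 4 groups. Tlr5 stayed at the foot of every BMDM group, with 76 counts over the 8 libraries at 0 h and 10 over the 8 at 6 h.

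**Figure D1:**
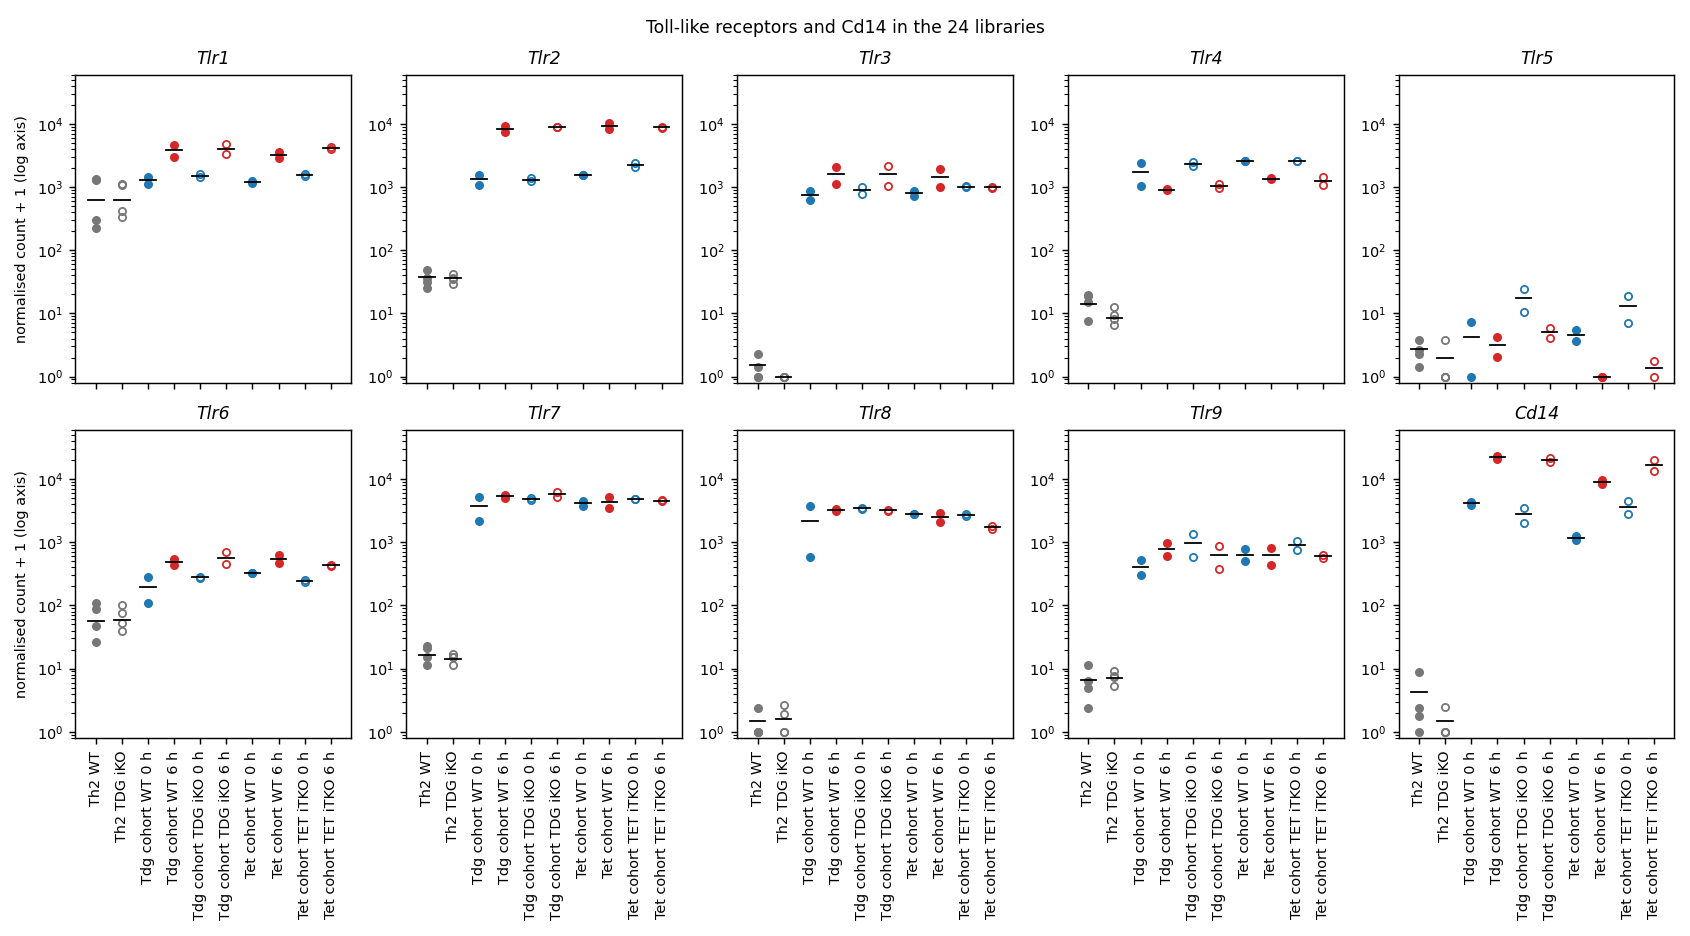
Normalised counts plus 1 (log axis) of each gene in every library, by group (WT filled, knockout open, grey for Th2 cells, blue for BMDM at 0 h, red for BMDM at 6 h of KLA), with a bar at the group mean. In BMDM, Cd14 lies between 1070 and 4459 at 0 h and between 8191 and 23450 at 6 h, whereas in Th2 cells Tlr1 lies between 222.1 and 1331 and the other 9 genes at or below 108.1.

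In Th2 cells the receptor genes were nearly silent apart from Tlr1. Tlr1 had 297.5, 222.1, 1290 and 1331 normalised counts in WT replicates 1 to 4 and 422.9, 332.8, 1108 and 1089 in TDG iKO. Replicates 3 and 4 were high and replicates 1 and 2 low in both genotypes, and the genotypes overlapped. The WT mean of 609.95 ± 607.63 (SD, n = 3) was followed by Tlr6 (56.3 ± 37.2) and Tlr2 (36.8 ± 10.4), and per kilobase of exon the order was the same (230, 21.6 and 12.2), with Tlr6 and Tlr2 overlapping. No other gene exceeded the 22.2 normalised counts of Tlr7 in any Th2 library, and Tlr4 had 5.66 to 18.9. Cd14 had 10 counts in the 8 libraries together, Tlr5 had 10, Tlr8 had 4 and Tlr3 had 2.

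WT Th2 cells were set against WT BMDM at 0 h of both cohorts to describe which of these receptors separate the cell types. By DESeq2, 8 of the 10 genes were lower in Th2 cells and none higher. Of all 14307 genes tested, 27.3% were lower and 31.4% higher (58.7% in either direction). Tlr2 was 43.8-fold lower (log2 -5.45 ± 0.27, SE, adjusted p = 7.24e-90), Tlr9 102-fold (log2 -6.68), Tlr4 143-fold (log2 -7.16), Tlr7 222-fold (log2 -7.80) and Cd14 1190-fold (log2 -10.22, on 9 Th2 counts). Tlr6, the partner of TLR2 for diacylated lipopeptides, differed least among the genes called (3.87-fold, log2 -1.95 ± 0.49, adjusted p = 0.000184). For Tlr3 and Tlr8 the Th2 libraries held 2 counts and 1 count, so the ratio of depth-scaled counts is given with its counting interval, 2350 (95% interval 651 to 19400) and 16400 (2940 to 647000). Tlr1 and Tlr5 were not called. The Tlr1 difference was -0.65 ± 0.54 (log2, adjusted p = 0.301) with all replicates and -0.996 (adjusted p = 0.116) with replicates 3 and 4 summed, but -2.31 (adjusted p = 1.46e-08) against the Tdg cohort with Th2 replicates 1 and 2 alone. The cell types were cultured and collected separately, so cell type and culture cannot be told apart. In bulk RNA, fewer cells carrying a transcript and less transcript per cell cannot be told apart either.

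Loss of TDG in Th2 cells moved none of the 10 genes past the threshold (DESeq2, 0 of 10 called and 0 with an unadjusted p under 0.05, edgeR 0 of 5 tested and 0, with 0.0126% of all genes called). When replicates were blocked, 0 of the 2 members that kept an adjusted p passed, beside 0.88% of all genes. Without a block Tlr1 differed by -0.08 (log2, 95% interval -1.34 to 1.18), Tlr2 by 0.05 (-0.54 to 0.65) and Tlr6 by -0.03 (-0.99 to 0.94). With replicates blocked Tlr1 differed by 0.12 ± 0.16 (SE), in a fit where replicates 3 and 4 entered as separate samples. The sign for Tlr1 was not settled, since it was 0.52 in replicates 1 and 2 and -0.24 in replicates 3 and 4, the latter with an adjusted p of 0.00075 by DESeq2 between libraries that differ by little more than counting noise. One caveat is sex: 1 TDG iKO library held Y-chromosome transcripts (Eif2s3y 1648, Ddx3y 1512, Uty 475.7 and Kdm5d 401.2 normalised counts) and little Xist (15.1). Every WT Th2 library had 0 counts of those Y-chromosome genes. Leaving out any single Th2 library called none of the 10 genes. Otherwise the part of this mismatch in the comparison, X-linked Tlr7 and Tlr8 included, was not tested.

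The response to 6 h of KLA was the question in each of 4 BMDM groups. Cd14, Tlr2 and Tlr1 rose in all 4 by DESeq2, about 4.61- to 7.73-fold, 3.96- to 6.94-fold and 2.63- to 3.02-fold in turn. Tlr6 rose in both groups of the Tet cohort. Tlr4, the gene for the receptor of KLA, was 1.88- to 2.25-fold lower in the fits and was called in 3 of the 4. In WT of the Tdg cohort 3 of 10 genes were called, beside 8.6% of all genes tested, and in TDG iKO 4 of 10, beside 7.08%. In WT of the Tet cohort 6 of 10 were called, beside 24.1%, and in TET iTKO 6 of 9 with an adjusted p, beside 24.4%. The median change over the 10 genes was 1.02, 0.55, 0.43 and -0.05 (log2) in those groups, where the medians over all genes tested lay between -0.03 and 0.00.

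**Figure D2:**
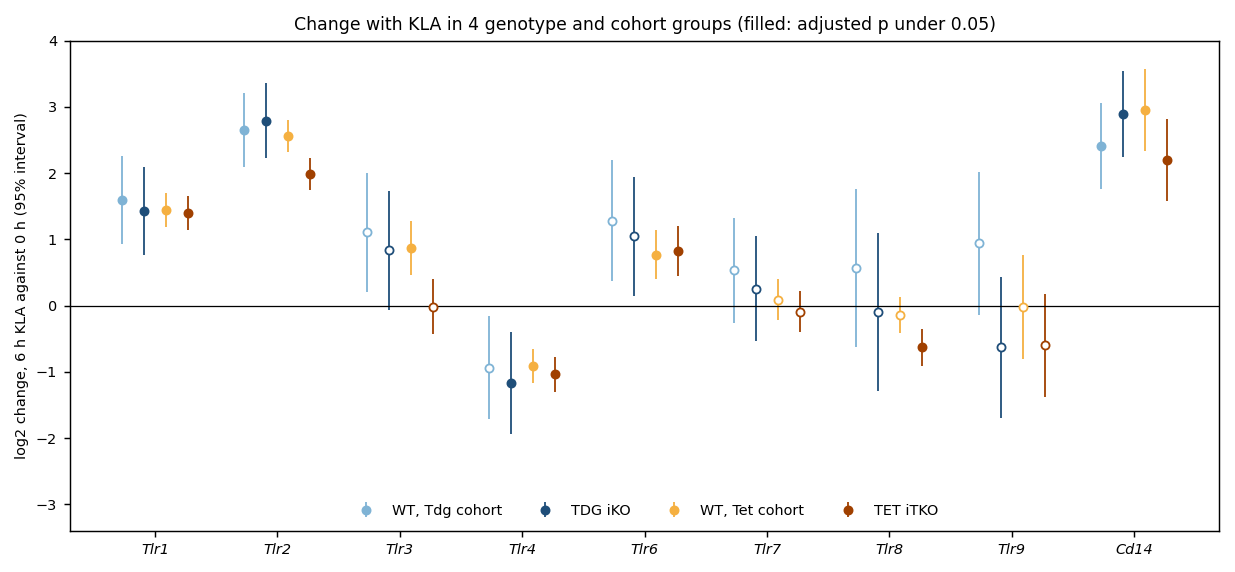
Change in 9 genes from 0 h to 6 h of KLA (log2, DESeq2, with 95% intervals) in the WT and knockout BMDM of the 2 cohorts, filled where the adjusted p was under 0.05. Tlr1, Tlr2 and Cd14 lie above 0 and filled in all 4 groups, Tlr4 lies below 0 in all 4, and the intervals are wider in the Tdg cohort.

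Cd14, the co-receptor gene of TLR4 signalling, lies at chr18:36884728-36886390 in mm9. It stood at 3943 and 4385 normalised counts in the WT libraries of the Tdg cohort at 0 h and at 23450 and 20990 after KLA. In TDG iKO it went from 3509 and 2002 to 21830 and 18770. The Tet cohort had 1263 and 1070 in WT at 0 h and 9738 and 8191 at 6 h, and in TET iTKO 2802 and 4459 against 13560 and 19860. Every 6 h library was above every 0 h library. The changes were 2.41 ± 0.33 and 2.89 ± 0.33 in WT and TDG iKO of the Tdg cohort and 2.95 ± 0.32 and 2.20 ± 0.32 in WT and TET iTKO of the Tet cohort (log2 ± SE, largest DESeq2 adjusted p = 6.41e-11). All 4 were kept when any replicate of the groups compared was left out.

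Tlr4 moved the other way in the 3 groups where it was called. Its levels were 2529 and 2555 in Tet-cohort WT at 0 h and 1314 and 1374 at 6 h, and 2576 and 2559 against 1419 and 1083 in TET iTKO. The falls were -0.91 ± 0.13 and -1.04 ± 0.13 (log2, DESeq2 adjusted p = 2e-10 and 3.06e-13), and the groups did not overlap. In TDG iKO the levels went from 2174 and 2476 to 1099 and 960.9 (-1.17 ± 0.40, adjusted p = 0.0453, 0.173 by edgeR), a call lost without any of the 4 libraries (adjusted p 0.135 to 0.407). WT of the Tdg cohort had 2411 and, in the library that stood apart, 1048 at 0 h, then 920.3 and 882.5 at 6 h. That difference was -0.94 ± 0.40 (adjusted p = 0.137), and without the library that stood apart it was -1.40 (adjusted p = 2.1e-05), whereas without the other 0 h library it was -0.24 (adjusted p = 0.601). Ly96, the MD-2 partner of TLR4, was not called in any KLA comparison.

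Tlr2 is the shared partner of the lipopeptide receptors. It rose from 1562 and 1090 to 9350 and 7362 in WT and from 1363 and 1221 to 8797 and 9020 in TDG iKO of the Tdg cohort. In the Tet cohort it rose from 1569 and 1560 to 8134 and 10230 in WT and from 2076 and 2388 to 9004 and 8659 in TET iTKO. The changes were 2.65 ± 0.29, 2.79 ± 0.29, 2.56 ± 0.12 and 1.99 ± 0.12 (log2 ± SE, in that order, largest DESeq2 adjusted p = 2.06e-17), and each was kept in every leave-out. Its promoter is the shown sequence with the kB motif. The part of this motif in the rise was not tested.

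Tlr1, whose product joins TLR2 for triacylated lipopeptides, rose from 1410 and 1121 to 3027 and 4609 in WT and from 1420 and 1608 to 3362 and 4713 in TDG iKO of the Tdg cohort. The Tet cohort gave 1144 and 1239 against 2823 and 3618 in WT, and 1503 and 1615 against 3964 and 4227 in TET iTKO. Its changes of 1.60, 1.43, 1.44 and 1.40 (log2, DESeq2 adjusted p from 8.28e-25 in TET iTKO and 2.76e-26 in Tet-cohort WT to 0.000783 in TDG iKO) lay close together. In TDG iKO the edgeR adjusted p was 0.0591, and the Tdg-cohort calls were lost without WT 6 h replicate 2 (1.25, adjusted p = 0.07), TDG iKO 0 h replicate 1 (1.34, 0.0622) or TDG iKO 6 h replicate 2 (1.16, 0.121). Tlr6 had the lowest level of the lipopeptide receptor genes, at 325.1 and 321.8 in Tet-cohort WT at 0 h and 465.8 and 631.9 at 6 h. It was higher after KLA in the Tet cohort by 0.77 ± 0.19 in WT and 0.82 ± 0.19 in TET iTKO (log2, DESeq2 adjusted p = 0.000279 and 0.000133), of which the WT call was lost without 6 h replicate 2 (0.53, adjusted p = 0.0814). In the Tdg cohort Tlr6 differed by 1.28 in WT and 1.05 in TDG iKO, with adjusted p of 0.062 and 0.198. The WT value was 0.796 (adjusted p = 0.338) without the library that stood apart and 2.12 (adjusted p = 0.000271) without the other 0 h library.

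Of the endosomal receptor genes, Tlr3, the sensor of double-stranded RNA, had 725.6 and 870.6 normalised counts in Tet-cohort WT at 0 h and 1003 and 1892 at 6 h. The rise was 0.87 ± 0.21 (log2, DESeq2 adjusted p = 0.000289) and 0.33 without 6 h replicate 2. With the mouse, shared by same-numbered libraries of this cohort, as a block it was 0.81 ± 0.15 (DESeq2 adjusted p = 6.36e-07). In TET iTKO the Tlr3 level was 1019 and 979.4 at 0 h and 1013 and 961.6 at 6 h, a difference of -0.02 (95% interval -0.43 to 0.40). In the Tdg cohort it was 857.5 and 627.4 against 1093 and 2104 in WT (1.11, adjusted p = 0.126, and 0.92 without the library that stood apart) and 772.8 and 1015 against 1041 and 2126 in TDG iKO (0.84, adjusted p = 0.418), so that in the 3 other groups replicate 2 at 6 h (1892 to 2126) lay above replicate 1 (1003 to 1093).

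Tlr7 and Tlr8, the X-linked genes for sensors of single-stranded RNA, had high and mostly level counts. Tlr7 ranged from 2150 to 5219 over the 8 libraries at 0 h and from 3429 to 6251 at 6 h, and its change with KLA was not called in any group (log2 -0.09 to 0.53, the highest being that of Tdg-cohort WT, which was 0.0438 without the library that stood apart and 1.29, adjusted p = 0.000187, without the other 0 h library). Tlr8 fell in TET iTKO from 2578 and 2748 to 1805 and 1633 (-0.63 ± 0.14, DESeq2 adjusted p = 7.96e-05, -0.71 to -0.55 in the leave-outs). In Tet-cohort WT it went from 2810 and 2773 to 2122 and 2901 (-0.14 ± 0.14, adjusted p = 0.551, -0.39 to 0.0685 in the leave-outs). In WT of the Tdg cohort Tlr8 stood at 3753 and 590.8 at 0 h and at 3094 and 3303 at 6 h. The fitted difference there was 0.57 with both 0 h libraries and -0.21 without the library that stood apart, neither of them called, and it was 2.42 (adjusted p = 1.56e-17) without the other 0 h library. TDG iKO had 3405 and 3439 against 3201 and 3150 (-0.10). The Xist level differed within the Tet-cohort WT group, being 0 in replicate 1 and 14440 (0 h) or 16280 (6 h) in replicate 2, and Tlr7 in those libraries was 3722 and 4468 at 0 h and 3429 and 5209 at 6 h. All 16 BMDM libraries, replicate 1 included, had 0 counts of Uty, Kdm5d, Eif2s3y and Ddx3y, which lie on the Y chromosome. The part of Xist in these values was not tested.

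Tlr9, the receptor of unmethylated CpG DNA, had 301.5 to 1361 normalised counts at 0 h and 369.7 to 971.6 at 6 h and was not called in any KLA comparison. In TET iTKO it went from 762.6 and 1048 to 565.3 and 627.2, a difference of -0.60 ± 0.40 (DESeq2 adjusted p = 0.317) that became -0.59 ± 0.15 (adjusted p = 0.000638) with the mouse as a block. In WT of that cohort it was 508.3 and 765.3 against 437.8 and 809.6 (-0.02). Tlr5, the flagellin receptor gene, had 0 to 23.4 normalised counts in BMDM at 0 h and 0 to 4.89 at 6 h, too few for a fold.

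Likeness to other genes was measured by Pearson's r over the 16 BMDM libraries, on log2 values, against 9530 genes with a mean of at least 50 normalised counts, and is given as a description, since the libraries share the KLA treatment and the cohorts. The genes most like Cd14 were Slc25a10 (0.981), the cytokine gene Il1b (0.98) and M6pr (0.971). Those most like Tlr2 were Fam102b (0.993), Lpcat2 (0.992) and Slc7a11 (0.991), and those most like Tlr1 were Tet2 (0.99), itself a targeted gene whose whole-gene count is read here, Jak2 (0.989) and Malt1 (0.985). Tlr4 had Azin1 (0.978), Uvrag (0.969) and Chd9 (0.967), and Tlr6 had Sh3bgrl2 (0.98) and Gca (0.965). Tlr3 was followed most closely by Parp11 (0.971) and Etnk1 (0.96), Tlr7 by Cox15 (0.959), Tlr8 by Itgb2 (0.951) and Tlr9 by Luzp1 (0.925).

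Among the other receptors and the proteins that work with these, Tlr13, a mouse receptor for bacterial ribosomal RNA, had more counts than any of the 9 Toll-like receptor genes in WT BMDM at 0 h (6944 to 13100 in the 4 libraries) and fell in all 4 KLA comparisons, by -1.16, -1.41, -1.33 and -1.56 (log2, largest DESeq2 adjusted p = 0.017). It was the single one of 3 other Toll-like receptor genes to pass, as Tlr11 and Tlr12 were near 0 in BMDM. Of 11 adaptors and kinases, 10 had an adjusted p in each comparison. Of these the same 4 rose each time and none fell, beside 4.27% (TDG iKO) to 13.1% (Tet-cohort WT) of all genes higher. They were Myd88 (log2 0.62 in TET iTKO and 0.96 or more in the other 3), Ticam2 (2.24, 2.13, 1.62 and 2.03), Irak2 (1.13 to 1.81) and Irak3, which encodes an inhibitory kinase (2.92, 2.46, 2.34 and 1.89). Of 9 receptor partners and chaperones none rose. None was called in the Tdg cohort, 3 fell in Tet-cohort WT (Cd180 by -1.11, Cd36 by -0.74 and Cnpy3 by -0.37) and 5 fell in TET iTKO (those 3 with Ly86 and Cnpy4). Of all genes, 11.1% were lower in Tet-cohort WT and 11.6% in TET iTKO. Cd180 and Ly86 form a receptor complex related to that of TLR4 and MD-2, and Cnpy3 is a chaperone of Toll-like receptors.

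TET iTKO BMDM were compared with WT of the same cohort to describe which genes differed between these genotypes before and after KLA. At 0 h Cd14, Tlr2 and Tlr1 were higher and no member was lower (DESeq2, 3 of 10 called, beside 7.5% of all genes tested, edgeR 2). The median difference of the 10 genes was 0.36, against 0.01 over all genes. Cd14 was 2802 and 4459 against 1263 and 1070 in WT, a 3.11-fold difference (log2 1.64 ± 0.32, DESeq2 adjusted p = 1.57e-05, edgeR 0.00292) that was called without any single library (1.27 to 1.93). Tlr2 was 2076 and 2388 against 1569 and 1560, or 1.43-fold (0.51 ± 0.13, adjusted p = 0.00156, edgeR 0.0387), and the call was lost without WT replicate 1, WT replicate 2 or TET iTKO replicate 2 (0.52, 0.51 and 0.42, adjusted p 0.057, 0.0653 and 0.224). Tlr1 was 1503 and 1615 against 1144 and 1239, or 1.31-fold (0.39 ± 0.13, adjusted p = 0.0471, edgeR 0.0992), and did not stay past the threshold in any of 4 leave-outs (adjusted p 0.141 to 0.569). Tlr4 was level between genotypes (2576 and 2559 against 2529 and 2555, log2 0.02, 95% interval -0.25 to 0.28).

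At 6 h of KLA the member called was Tlr8, which was lower in TET iTKO (1805 and 1633 against 2122 and 2901, -0.55 ± 0.14, DESeq2 adjusted p = 0.0031, edgeR 0.0452), 1 of 9 genes with an adjusted p, beside 6.58% of all genes tested. The difference was -0.48 without TET iTKO replicate 2 and -0.31 without WT replicate 2. Xist, X-linked like Tlr8, was uneven between these groups. At 6 h it lay between 15280 and 18400 normalised counts in TET iTKO and stood at 0 and 16280 in the WT libraries. The part of this mismatch in the Tlr8 difference was not tested. Cd14 was still higher in both TET iTKO libraries, 13560 and 19860 against 9738 and 8191 (0.89 ± 0.32), with an adjusted p of 0.0662 by DESeq2 and 0.049 by edgeR. Tlr2 levels had met (9004 and 8659 against 8134 and 10230, log2 -0.06, 95% interval -0.31 to 0.18). Tlr3 was 1013 and 961.6 against 1003 and 1892 (-0.56 ± 0.21, adjusted p = 0.0939), and this difference was -0.95 (adjusted p = 2.78e-06) without WT replicate 1 and -0.03 without WT replicate 2.

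**Figure D3:**
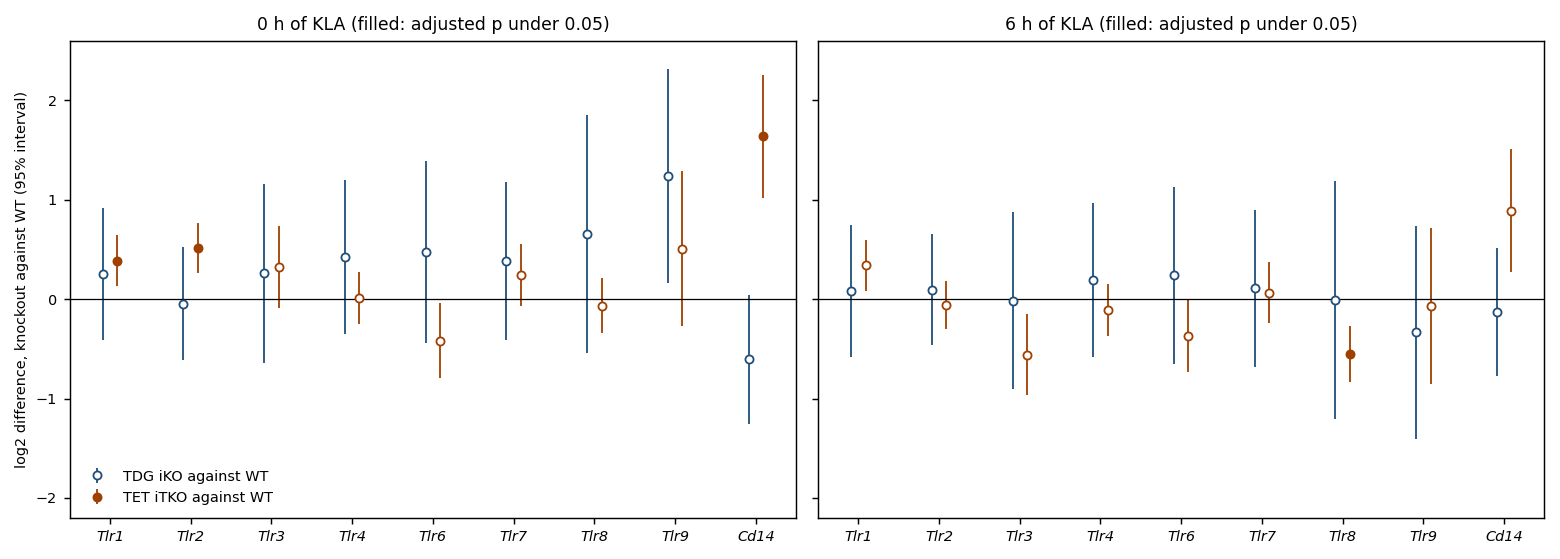
Differences of 9 genes between knockout and WT BMDM (log2, DESeq2, with 95% intervals) at 0 h and 6 h, filled where the adjusted p was under 0.05. Cd14 shows the largest TET difference at 0 h (1.64), Tlr8 is the single filled point at 6 h (-0.55), and no TDG point is filled.

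Whether TET loss changed the response to KLA was tested as an interaction. Without a block none of the 10 genes was called (DESeq2, 3 with an unadjusted p under 0.05, edgeR 0 called and 4 under 0.05, beside 0.426% of all genes called). The libraries at 0 h and 6 h of the Tet cohort came in pairs from the same mouse, and with the mouse as a block, nested in genotype, 3 members were called, beside 2.48% of all genes. These were Cd14 (-0.73 ± 0.11, adjusted p = 1.02e-08), Tlr2 (-0.57 ± 0.14, 0.00544) and Tlr3 (-0.82 ± 0.21, 0.00728), and all 3 had a smaller log2 change in TET iTKO. Mean Cd14 went from 1166 to 8965 normalised counts in WT and from 3631 to 16711 in TET iTKO. Its smaller change was thus in fold and not in counts gained. Without the block the differences were -0.75 ± 0.45, -0.58 ± 0.18 and -0.88 ± 0.30. With single libraries left out they ranged over -1.04 to -0.386 (Cd14), -0.736 to -0.394 (Tlr2) and -1.27 to -0.344 (Tlr3). For Cd14 and Tlr2 the TET iTKO level was above WT at 0 h, and at 6 h Cd14 was still above WT and Tlr2 lay within the WT range. For Tlr3 the libraries of both TET iTKO mice stayed level, whereas those of the WT mice rose to 1003 and 1892.

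**Figure D4:**
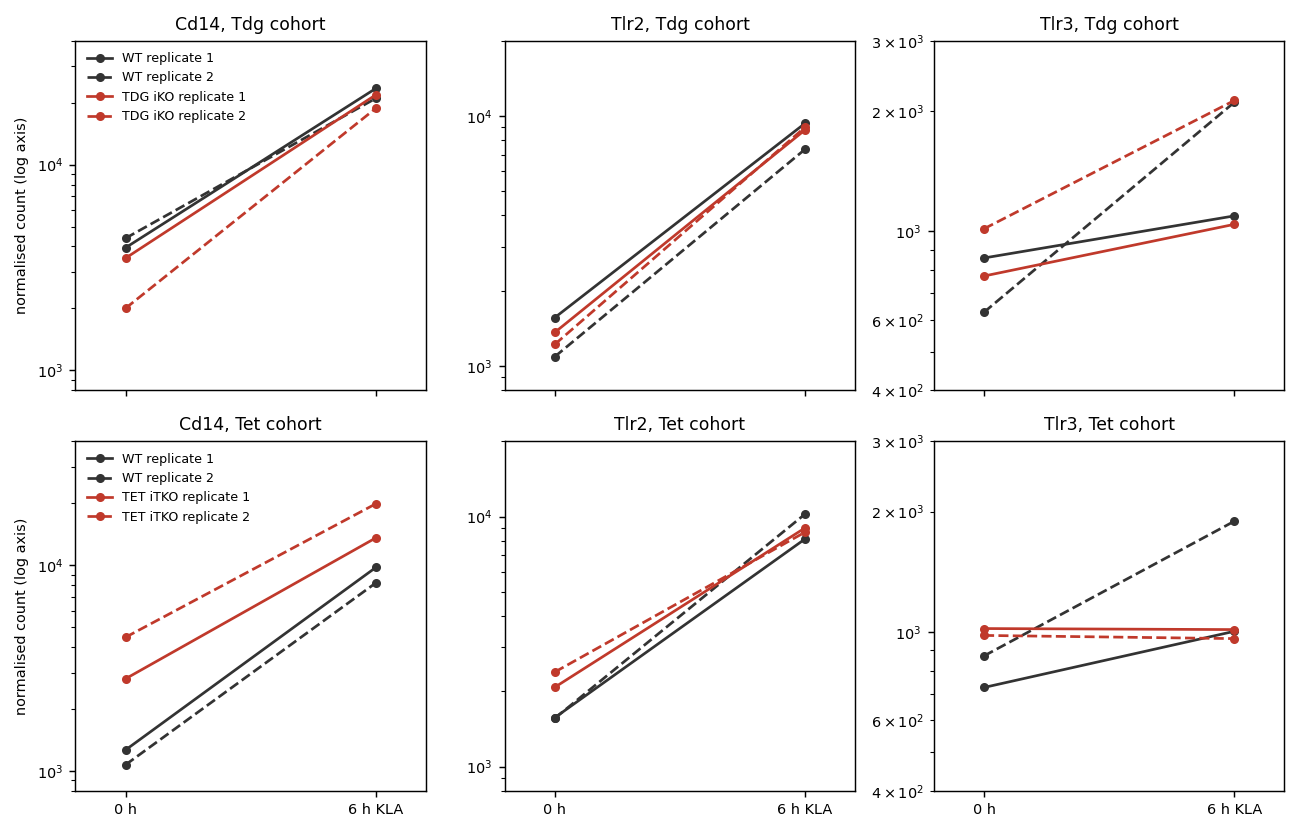
Normalised counts (log axis) of Cd14, Tlr2 and Tlr3 at 0 h and after 6 h of KLA, with lines joining libraries of the same replicate number, which in the Tet cohort are the same mouse and in the Tdg cohort share a number only. In the Tet cohort TET iTKO Cd14 starts at 2802 and 4459 against 1263 and 1070 in WT, and TET iTKO Tlr3 lies flat between 961.6 and 1019.

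Other marker genes moved with these TET differences. At 0 h, 2 of 5 monocyte and neutrophil genes were higher (Ccr2 and S100a8) and 1 lower (Ly6c2), 3 of 5 B cell genes were higher, Cd34 was higher among 7 genes of immature cells, Ccr7 was higher among 5 dendritic cell genes (3 with an adjusted p), and of 6 macrophage genes Itgam was higher and Cd68, Lyz2 and Mertk lower. Of all genes at 0 h, 4.38% were higher and 3.12% lower. The summed level of the monocyte and neutrophil list was 4123 to 5482 in TET iTKO and 3460 to 4006 in WT, that of the B cell list 78.9 to 299.6 against 20.8 to 26.9, that of the immature list 310.6 to 1115 against 190.4 to 449.9 that of the dendritic list 15710 to 15840 against 13770 to 16690 and that of the macrophage list 297900 to 300300 against 354600 to 368200. Of these lists only Siglech was at 0 in both libraries of a group (TET iTKO). At 6 h, the time of the Tlr8 difference, Ccr2, S100a8, Cd34, Prtn3, Ms4a1 and Ccr7 were higher and Ly6c2, Cd68, Lyz2 and Mertk lower. Of all genes at 6 h, 3.24% were higher and 3.34% lower. The summed levels at 6 h were 5682 to 6182 in TET iTKO against 5803 to 6482 in WT (monocyte and neutrophil), 58.32 to 285.3 against 25.34 to 38.15 (B cell), 305.7 to 807 against 148.6 to 237.3 (immature), 10420 to 14820 against 13800 to 16100 (dendritic) and 310300 to 314300 against 382700 to 393600 (macrophage), and Flt3 and Siglech were at 0 in both WT libraries. Their part in the Cd14, Tlr1, Tlr2 and Tlr8 differences was not tested. Among the listed partners, Ly86 was lower in TET iTKO at 0 h (-1.12 ± 0.19) and at 6 h (-1.31 ± 0.19), as were Cd36 (-0.51 at both times) and, at 0 h, Hsp90b1 (-0.40), which encodes a chaperone that Toll-like receptors need. Among the adaptors and kinases Irak3 was higher at 0 h (0.56 ± 0.11) and Ticam2 at 6 h (0.55 ± 0.18).

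TDG iKO BMDM were compared with WT of the Tdg cohort in the same way. At 0 h none of the 10 genes was called (DESeq2, 1 with an unadjusted p under 0.05, edgeR 0 of 9 and 0, with 0.0% of all genes called), and at 6 h again none (0 and 0 by both tools, 0.0% of all genes). Cd14 was 3509 and 2002 in TDG iKO against 3943 and 4385 at 0 h, a difference of -0.60 (log2, 95% interval -1.25 to 0.04), and -0.13 (-0.77 to 0.52) at 6 h. The gene with the unadjusted p under 0.05 was Tlr9 at 0 h, 585.4 and 1361 against 520.4 and 301.5 (1.24, 95% interval 0.16 to 2.31, DESeq2 adjusted p = 1), and the difference was 0.924 ± 0.703 (SE) without the library that stood apart, the WT library at 301.5. For Tlr4, Tlr6, Tlr7 and Tlr8 the sign at 0 h turned on that library. With it they were 0.42, 0.47, 0.39 and 0.66, and without it -0.035, -0.005, -0.0957 and -0.117. Without the other WT library, replicate 1, Tlr4, Tlr7 and Tlr8 were called (1.12, 1.14 and 2.51) and Tlr6 was not (1.31, adjusted p = 0.0566), all resting on the library that stood apart. At 6 h the 95% interval of the Tlr4 difference was -0.58 to 0.97, which bears on Tlr4 alone. Tlr4 was not called between TET iTKO and WT either. The interaction test of the response to KLA in TDG iKO called no member (DESeq2 0 of 10, 1 with an unadjusted p under 0.05, edgeR 0 and 0, with 0.0% of all genes called), and it called Tlr8 (-2.52) when WT 0 h replicate 1 was left out.

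The TET and TDG effects were last compared with each other, each against its own WT. At 0 h the Cd14 effects differed by 2.25 ± 0.42 (log2, DESeq2 adjusted p = 0.000169), the 1 member called of 9, beside 0.355% of all genes, and edgeR gave 2.21 with an adjusted p of 0.178 and 0 calls (1 gene with an unadjusted p under 0.05). The Cd14 call stayed in all 8 leave-outs (1.88 to 2.71). Cd14 in the 2 WT libraries of the Tet cohort was the lowest of the 8 BMDM libraries at 0 h, 1263 and 1070 where the other 6 had 2002 to 4459, and again the lowest at 6 h, 9738 and 8191 where the other 6 had 13560 to 23450. TET iTKO Cd14 (2802 and 4459 at 0 h) lay around that of the Tdg-cohort WT (3943 and 4385). The WT groups of the cohorts were not tested against each other, because cohort and genotype background cannot be told apart there. The remaining members did not differ beyond the threshold at 0 h, and at 6 h none did (DESeq2 0 of 10, 1 with an unadjusted p under 0.05, Cd14 at 1.03, edgeR 0 and 1, beside 0.0765% of all genes).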

How the data were processed

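Polyadenylated RNA of 24 mouse libraries was sequenced as directional paired-end reads. The authors aligned reads to mm9 with HISAT2 and made read counts per gene with HTSeq, and the submitters' processing notes name DESeq2 1.30.0. The deposited counts are whole numbers without normalization, and tool versions, annotation and strand setting are not given in the sources used here. The 5 tally rows of unassigned reads were left out. The members and gene lists were chosen with earlier results of these data known.

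DESeq2 1.42.0 (R 4.3.3) was fitted on all genes, within the Th2 libraries, within each BMDM cohort, over all 16 BMDM libraries for differences between effects and over the 8 WT libraries for cell types, with a Wald test and a Benjamini-Hochberg adjusted p under 0.05 as the call. The Th2 fits used all 4 replicates of a genotype. edgeR 4.0.16 (quasi-likelihood, TMM) was the alternative. The DESeq2 and edgeR fits without a block were tested on simulated counts with known changes. Normalised counts use size factors over 24 libraries, and exon lengths come from GENCODE on mm9. Intervals are 95%. Intervals of count ratios cover counting error only. The rule for named genes was the 10 members in all groups, plus the listed receptors, partners, adaptors, Xist and cell markers, of which 1 monocyte and neutrophil gene is not reported here. Same-numbered 0 h and 6 h libraries of the Tet cohort came from the same mouse by file names in the labels (correlation of their deviations 0.512 in WT and 0.454 in TET iTKO). In the Tdg cohort, where no label gives the mouse, that correlation was 0.357 in WT and 0.809 in TDG iKO. Same-numbered WT and TDG iKO libraries of that cohort correlated at 0.812 at 6 h. The correlation thus cannot tell a shared mouse from another shared factor. Same-numbered Th2 libraries of WT and TDG iKO correlated at 0.676 to 0.903. Alternatives were TMM factors in DESeq2, a filter of 10 counts in 2 libraries, replicate blocks, only the groups compared, summed Th2 replicates and leaving out each replicate.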

Additional observations from a re-analysis of the deposited data

Results flagged for a closer look

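Cd14 differed between the TET and TDG comparisons at 0 h, with TET iTKO above its WT and TDG iKO below its own (difference of effects 2.25 on the log2 scale, DESeq2 adjusted p = 0.000169, edgeR 0.178). Among the Th2 replicates, 3 genes had a library far from the others. They were Tlr5 in TDG iKO (2.83 normalised counts where the other 3 replicates had 0), Tlr8 in WT (1.41 where the others had 0) and Cd14 in TDG iKO (1.45 where the others had 0), each of them a library with 1 to 3 counts. Beside replicates at 0 any count stands out, so nothing is read from these.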

How the results depend on the processing

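Of 1299 values of single genes under an alternative, over members with a mean of at least 20 normalised counts or called under some setting, 1151 kept their direction and side of the threshold, 23 kept the direction but lost the call, 40 gained a call and 85 changed sign, 75 of these when a replicate was left out. The number of members called was 2 rather than 1 for TET iTKO at 6 h with edgeR, with the replicate block and with only the groups compared. It was 2 rather than 4 for KLA in TDG iKO with edgeR and 0 rather than 1 for the TET against TDG effect at 0 h with edgeR. For KLA in WT of the Tdg cohort it was 6 rather than 3 with the replicate block and 7 with the block nested in genotype (gaining Tlr3, Tlr4 and Tlr6, and Tlr9 when nested). The labels give these pairs only a shared number (correlation 0.357 in WT and 0.809 in TDG iKO), so whether they share a mouse is not known. For the TET interaction it was 3 rather than 0 with the nested block, and 1 rather than 0 for Th2 replicates 3 and 4 only. Leaving out a replicate gave 0 to 3 members for TDG iKO at 0 h, 1 to 2 for TET iTKO at 0 h, 0 to 2 for TET iTKO at 6 h, 2 to 6 for KLA in Tdg-cohort WT, 2 to 3 for KLA in TDG iKO, 0 to 1 and 0 to 3 for the TDG and TET interactions and 1 to 5 for the TET against TDG effect at 0 h. The causes were not tested. Tlr1 in Th2 cells changed sign to 0.12 with the replicate block, 0.0181 with replicates 3 and 4 summed, 0.24 with both (chosen after seeing the data) and 0.52 in replicates 1 and 2. Under the same settings Tlr6 changed sign to 0.0414, 0.0198, 0.12 and 0.29, and Tlr2 to -0.0093 with replicates 3 and 4 summed and -0.14 in replicates 1 and 2. Leaving out single replicates changed the sign in 47 of 120 gene and comparison pairs, none of them called with all replicates, over these ranges of log2 differences. For TDG iKO Th2 cells they were -0.39 to 0.30 (Tlr1), -0.11 to 0.24 (Tlr2) and -0.30 to 0.31 (Tlr6). For TDG iKO at 0 h they were -0.26 to 0.22 (Tlr2), -0.035 to 1.12 (Tlr4), -0.005 to 1.31 (Tlr6), -0.0957 to 1.14 (Tlr7) and -0.12 to 2.51 (Tlr8). For TDG iKO at 6 h they were -0.20 to 0.43 (Tlr1), -0.0521 to 0.26 (Tlr2), -0.63 to 0.55 (Tlr3), -0.12 to 0.52 (Tlr6), -0.035 to 0.24 (Tlr7), -0.0698 to 0.055 (Tlr8) and -1.09 to 0.16 (Tlr9). For TET iTKO at 6 h they were -0.22 to 0.12 (Tlr2), -0.33 to 0.0788 (Tlr4), -0.21 to 0.40 (Tlr7) and -0.45 to 0.44 (Tlr9). For KLA in Tdg-cohort WT it was -0.21 to 2.42 (Tlr8). For KLA in TDG iKO it was -1.39 to 0.0972 (Tlr9). For KLA in Tet-cohort WT they were -0.25 to 0.36 (Tlr7), -0.39 to 0.0685 (Tlr8) and -0.54 to 0.36 (Tlr9). For KLA in TET iTKO it was -0.0639 to 0.0282 (Tlr3). For the TDG interaction they were -0.46 to 0.18 (Tlr1), -0.12 to 0.36 (Tlr2), -0.89 to 0.29 (Tlr3), -0.93 to 0.23 (Tlr4), -1.07 to 0.25 (Tlr6), -1.04 to 0.21 (Tlr7) and -2.52 to 0.11 (Tlr8). For the TET interaction they were -0.22 to 0.15 (Tlr1), -0.34 to 0.0608 (Tlr4), -0.15 to 0.30 (Tlr6) and -0.45 to 0.16 (Tlr7). For the TET against TDG effect at 0 h they were -0.0118 to 0.27 (Tlr1), -0.15 to 0.28 (Tlr3), -1.10 to 0.0516 (Tlr4), -0.89 to 0.34 (Tlr7), -2.57 to 0.0514 (Tlr8) and -1.21 to 0.0082 (Tlr9). For the TET against TDG effect at 6 h they were -0.0872 to 0.55 (Tlr1), -0.31 to 0.0346 (Tlr2), -1.11 to 0.0906 (Tlr3), -0.30 to 0.31 (Tlr7) and -0.23 to 1.05 (Tlr9). Apart from the cases named here and in the report, blocks changed no count of members by over 1.5 times. Depth limits Tlr5 and the Th2 values of Tlr3, Tlr8 and Cd14.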
